A study of Mus musculus with 20 samples.

Results

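The regions described here are 1384 places in mouse brown adipose tissue (BAT) where a peak of the transcriptional cofactor GPS2 was called in both deposited BAT lists, one from tissue labelled male and one from tissue labelled female. They were chosen by position and height: a peak of the male list on chromosomes 1 to 19 that overlapped a peak of the female list by at least 1 bp, with a height below 15 normalized tags in both. A normalized tag is a sequenced fragment end within the peak, scaled by the authors to a library of 10000000 tags. Of 1426 overlapping pairs on these chromosomes, 1384 were under the height limit and 42 were not. No peak overlapped more than 1 peak of the other list, so each pair is 1 region. The pairs make up 3.49% of the 39649 autosomal peaks of the male list (Wilson 95% interval 3.31 to 3.68) and 7.39% of the 18722 of the female list (7.03 to 7.78). The 4 GPS2 peak lists used here hold 164307 peaks.

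GPS2 belongs to the corepressor complexes built on N-CoR or SMRT, which hold the histone deacetylase HDAC3 at target genes. It also inhibits the ubiquitin-conjugating enzyme Ubc13. It has been described both in mitochondria and in the nucleus, where it acts on nuclear genes for mitochondrial proteins. Brown fat is rich in mitochondria and burns fuel to make heat through the uncoupling protein UCP1.

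GPS2 was mapped by chromatin immunoprecipitation and sequencing (ChIP-seq), in which DNA fragments bound by a protein are collected with an antibody and counted along the genome. The BAT came from mice of a mixed 129sv/C57BL6J background, untreated as far as the labels say and of unstated age: GPS2 wild-type mice labelled male and labelled female, and knockouts labelled with the same sexes. The knockouts carry floxed Gps2 alleles and a Cre transgene driven by the adiponectin promoter, which is active in fat cells, so vessel, nerve, immune and precursor cells of the tissue keep GPS2. The labels name a sex for each sample, whereas the growth protocol says that males were used throughout, so the lists are called here by their label only. The other GPS2 lists came from 3T3-L1, a mouse preadipocyte line that can be turned into fat cells, without treatment and with FCCP, a chemical that uncouples mitochondria. Their stage of differentiation is not stated in the labels. Each BAT list compares 1 wild-type library with 1 knockout library, and each 3T3-L1 list pools 2 libraries without a control. The wild-type libraries held 30069322 tags (male) and 39310667 (female), and the 3T3-L1 pools 74504840 (untreated) and 66979291 (FCCP). With 1 list per condition no difference between conditions can be tested, and intervals below cover counting error only. The peaks are named by position on the mouse build mm8. They were not matched to genes, so the tissue was not checked against fat cell markers here.

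Most of these peaks were low. In the male list their height had a median of 6.32 normalized tags (quartiles 4.99 and 8.31, range 2.66 to 14.6), which stands for a median of 19 tags in the library. In the female list the median was 4.07 (quartiles 3.31 and 5.09, range 2.29 to 11.2), or 16 library tags. The typical shared peak thus rested on fewer than 20 tags in either library. The other autosomal peaks under the same limit were lower still, with a median of 4.32 normalized tags over 38187 peaks in the male list and 3.31 over 17227 in the female list. These heights are part of how the regions were selected, and are given as a description with no test.

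The tallest regions in both lists show what the upper end looks like. The pair with the highest value in its lower list, chr5:113473719-113473853 in the male list, had 11.0 normalized tags in the male list and 11.2 in the female list. It met no peak of either 3T3-L1 list. The region chr2:28006540-28006674 had 13.0 tags (male), 10.7 (female), 6.71 in untreated 3T3-L1 cells and 8.51 with FCCP, so it was called in all 4 lists. A pair on chromosome 11 that was likewise called in all 4, chr11:68879253-68879387, had 14.3 (male), 9.41 (female), 9.93 (untreated) and 7.46 (FCCP). Regions chr13:76263915-76264049 (12 tags male, 9.41 female) and chr5:122908655-122908789 (11.0 and 9.16) met a peak in untreated cells, of 7.38 and 8.86 tags, and none with FCCP. Of these 5 tallest pairs, 4 therefore met an untreated 3T3-L1 peak and 2 an FCCP peak. Over the whole autosomal male list these shares were 3.01% and 3.39%. Among peaks of 10 to 15 tags in the male list, 14.1% of the pairs and 12% of the others met an untreated peak. For FCCP it was 4.89% and 12.8%, so the 5 do not stand for tall pairs in general. The folds of these 5 pairs over the knockout in the male list, from 2.12 to 3.34, were below the median of the 1384 pairs (3.83). In the female list they were 2.91, 4.86, 3.81, 8.56 and 2.22 in the order named, 4 of them below that list's median of 5.24 and the one on chromosome 13 above it.

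The limit of 15 tags falls within a continuous range. Just inside it stood chr1:182105398-182105532, chr1:186525460-186525594 and chr15:99198563-99198697, each with 14.6 tags in the male list and with 5.60, 5.09 and 6.61 in the female list. Just outside it stood chr10:79568251-79568385 with 15.0 (male) and 8.39 (female), chr1:137569448-137569582 with 15.3 and 5.60, and chr11:69217546-69217680 with 15.3 and 6.87. All 42 pairs outside were at or above the limit in the male list, 24 of them in the female list as well, and the tallest reached 511.2.

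**Figure D1:**
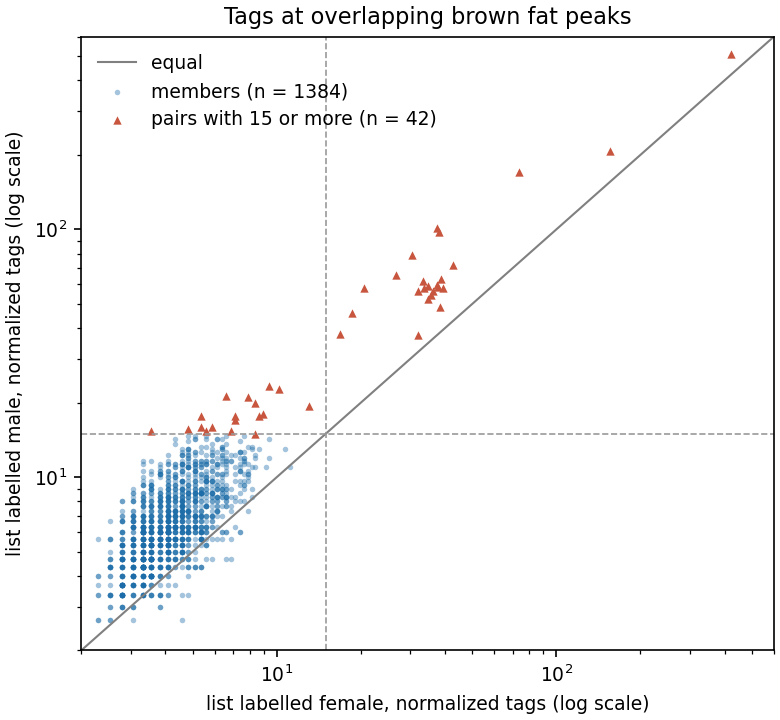
Height of all 1426 overlapping pairs in the list labelled male (vertical axis, normalized tags, log scale) against that in the list labelled female (horizontal axis, same unit), with the line of equal heights and dashed lines at the limit of 15. Most points lie above the line of equal heights, since 1321 of the 1384 pairs inside the limit were higher in the male list.

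Within the pairs the male list gave the higher value almost throughout. The median ratio of male to female normalized tags was 1.53 (log2 0.61, order-statistic 95% interval 0.59 to 0.65 over pairs, quartiles 0.38 and 0.90). The male value was higher in 1321 of 1384 pairs, lower in 61 and equal in 2. A ratio over 2-fold was found in 270 pairs (19.5%), against 20.6% of all 1426 pairs. No pair was below 0.5-fold. The exact 95% interval of a pair's ratio, computed from its library tags, lay above 1 in 294 pairs (21.2%, against 23.4% of all pairs), included 1 in 1090 and lay below 1 in none. The spread of the log2 ratios across pairs (SD 0.40) was smaller than the SD that counting alone gives for a single pair (median 0.49), so the order of single pairs by their ratio is mostly not resolved at this depth. Both peaks of a pair had to pass their calls and stay below 15 tags. This choice on the same values limits the spread and how far a ratio can lie from 1, by an amount that was not tested.

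The direction depends on what a height is set against. Relative to the surroundings, the 10000 bp around a peak, the median log2 ratio was 0.34 and 80.8% of pairs were higher in the male list. With each height divided by its own list's median height it was 0.23. Relative to the knockout it turned, to -0.46, with only 25.1% of pairs higher in the male list. The knockout level is the height divided by its fold over the knockout, that is, the tags of the knockout library at the same place on the wild-type scale. It was 2.19-fold higher in the male list than in the female list at the median pair, and higher in 89.1% of pairs. The level of the surroundings, likewise the height divided by its fold over the surroundings, was 1.21-fold higher and higher in 88.4%.

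The extreme ratios were looked up among the 588 pairs at or above the median member height in both lists. The largest was at chr19:10371944-10372078, with 14.3 tags in the male list and 4.32 in the female list, a ratio of 3.31 (exact 95% interval 1.85 to 6.18). Its fold over the knockout was 2.04 in the male list and 3.93 in the female list. The ratio was 3.15 at chr9:123700623-123700757 (13.6 and 4.32 tags, interval 1.75 to 5.92), a region that also met untreated (4.83 tags) and FCCP (6.12 tags) 3T3-L1 peaks. It was 3.02 at chr17:34871004-34871138 (14.6 and 4.83 tags, interval 1.73 to 5.49). At the other end the ratio was 0.888 at chr14:119431214-119431348 (6.32 and 7.12 tags, interval 0.468 to 1.65), 0.928 at chr1:172531042-172531176 (7.32 and 7.89 tags) and 0.982 at the tallest pair, on chromosome 5. The 3 largest ratios have intervals above 1, and those of the 3 smallest include 1. These pairs were picked for their ratios, and the intervals do not allow for that choice. The median ratio over all pairs was already 1.53, so the intervals of the largest show nothing particular to them.

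Peaks were 135 bp wide in the male list and 139 bp in the female list. The rule asked for an overlap of at least 1 bp, which at these widths keeps the centres at most 136 bp apart. Within that limit most centres lay close together. The centres were a median of 39 bp apart (quartiles 17 and 71, largest 136), and the overlap had a median of 98 bp. In 409 pairs the centres were within 20 bp and in 838 within 50 bp, while in 148 they were over 100 bp apart. The female centre lay to the right in 683 pairs, to the left in 682 and at the same base in 19, so there was no shift to one side.

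Close pairs were also more frequent than distant ones. Among all autosomal pairs of a male and a female peak with both heights below 15, there were 204.5 pairs per 10 bp of distance up to 20 bp and 41.1 between 100 and 136 bp. Beyond the distance at which peaks can overlap the density was 31.7 between 136 and 200 bp. It then stayed level, at 23.4 between 200 and 300 bp, 24.9 between 300 and 400 bp and 22.4 between 400 and 500 bp. Further out it fell, to 11.4 between 1500 and 2000 bp. The rule takes pairs from the steep inner part of this curve together with its shoulder. Pairs with centres within 20 bp had medians of 6.65 (male) and 4.32 (female) tags and 7.09-fold and 5.38-fold over the surroundings. Those over 100 bp apart had 5.99 and 4.07 tags and 5.94-fold and 4.78-fold, so the closest pairs were slightly taller and stood out slightly more.

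**Figure D2:**
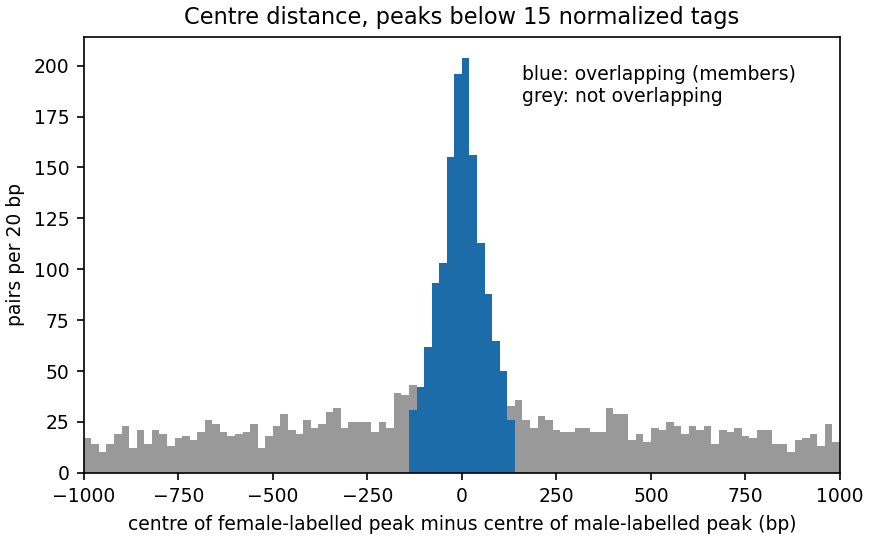
Number of pairs of a peak of the list labelled male and a peak of the list labelled female (vertical axis, pairs per 20 bp) by the distance from the male to the female centre (horizontal axis, bp), with both heights below 15. Overlapping pairs, up to 136 bp apart, form a narrow peak around 0 that is alike on both sides.

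The knockout libraries carried tags at nearly all of these regions. The male list gave a median of 3.83-fold over the knockout at the pairs against 5.41-fold at its other peaks, and the female list 5.24-fold against 6.02-fold. The wild-type height was greater at the pairs, and the knockout level was greater still: 1.80 against 0.678 normalized tags in the male list (2.66 times) and 0.824 against 0.550 in the female list (1.5 times). The authors' calls asked for at least 2-fold over the knockout, and this filter removed 75.6% of the putative peaks of the male list and 83.6% of those of the female list. The knockout column was at its minimum, which stands for no tag, at 5 of the 1384 regions in the male list and at 55 in the female list, and at 1 in both. Among other peaks the shares at that minimum were 3.51% and 9.27%.

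Between peaks of like height the knockout levels were closer. Among peaks of 4 to 6 tags in the male list, the median knockout level was 1.13 normalized tags at the pairs and 1.13 at the others. At 2 to 4 tags it was 0.676 against 0.451. Among peaks of 10 to 15 tags it was 3.82 against 3.19, and the fold over the knockout 3.05 against 3.50. In the female list the knockout level was 0.550 against 0.550 between 3 and 4 tags and 1.65 against 1.65 between 6 and 8. It was lower at the pairs between 5 and 6 tags (1.099 against 1.373) and between 8 and 15 (1.92 against 2.75, with 14 pairs). The median fold over the knockout was higher at the pairs in these taller female bands. It was 4.745 against 4.26 (5 to 6 tags), 4.32 against 3.86 (6 to 8) and 4.9 against 3.29 (8 to 15). In the male list this fold was lower at the pairs in every height band. Across the 1384 regions, the wild-type and knockout levels had a Spearman's rho of 0.87 in the male list and 0.63 in the female list. These are descriptions over regions of the same libraries, and every region had to pass a ratio of the very same values, which ties them together.

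At least 4-fold over the knockout in both lists was reached by 551 regions (39.8%), against 38.9% of all 1426 pairs. A further 543 (39.2%) reached it in the female list only, 76 (5.49%) in the male list only, and 214 (15.5%) in neither. The first of these classes held the lower regions, with medians of 4.99 (male) and 3.56 (female) tags, and the last the taller ones, with 8.48 and 5.09. Under 3-fold in both lists were 24 regions (1.73%). The 1426 pairs include the 1384, and the sizes of the other classes were not set beside a wider set. They describe these regions and do not set them apart. The fold over the knockout was hardly shared between the lists: its Spearman's rho across the 1384 pairs was 0.15, against 0.63 for height, 0.61 for the fold over the surroundings and 0.92 for the level of the surroundings.

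The regions with the highest folds over the knockout were low ones. At chr10:77765293-77765427 the heights were 5.99 (male) and 4.07 (female) normalized tags and the deposited folds over the knockout 26.53 and 29.62. The female knockout library had no tag there, and with 3 knockout tags as the limit that a count of 0 allows, the female region was at least 4.93-fold higher. At chr2:122394326-122394460 (3.33 and 2.80 tags) neither knockout library had a tag, and the same limit gives at least 4.92-fold (male) and at least 3.40-fold (female). Regions chr7:141095948-141096082 (4.66 and 3.56 tags), chr1:190599498-190599632 (3.66 and 2.80) and chr13:91186224-91186358 (3.66 and 2.80) complete the 5 with the highest lower fold. The authors gave them 20.64-fold, 16.22-fold and 16.22-fold in the male list and 12.96-fold, 10.18-fold and 10.18-fold in the female list. All 5 rest on at most 18 library tags in the wild type, and none met a 3T3-L1 peak. Over the 1384 regions only 6.50% did so by the male peak, so this does not set the 5 apart.

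Relative to their surroundings these regions were about as prominent as other peaks. The median fold over the surroundings was 6.61 against 6.04 in the male list and 5.05 against 5.29 in the female list. The surroundings themselves were higher: 0.993 against 0.701 normalized tags per peak width in the male list, and 0.816 against 0.616 in the female list. The share of tags on the expected strand side of the peak, which HOMER reports as a measure of how sharply tags gather around the centre, had medians of 0.75 against 0.774 and 0.714 against 0.762.

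The share of a list that was found in the other list climbed with height and with the surroundings. In the male list it was 0.801% of peaks of 2 to 4 tags, 3.09% of 4 to 6, 9.17% of 6 to 8, 16.6% of 8 to 10 and 33.4% of 10 to 15 (Wilson 95% interval 29.6 to 37.4). In the female list it went from 2.09% of peaks of 2 to 3 tags to 35.5% of 6 to 8 (30.9 to 40.4), with 28.6% of the 49 peaks of 8 to 15 (17.8 to 42.4). A female peak whose male partner reached 15 tags is outside the pairs, so it does not count towards these shares. Female peaks of 13 and 10.2 tags, with male partners of 19.3 and 22.6, are examples. The lower share in the tallest female band is therefore not the share found in the male list. With each list divided into 5 equal groups by the level of the surroundings, from the lowest to the highest, the shares were 0.807%, 1.69%, 2.68%, 4.72% and 7.55% in the male list and 1.70%, 3.62%, 5.71%, 9.64% and 16.5% in the female list. With height and surroundings divided together, at 6 to 15 tags the share was 11.1% in the lower surroundings and 13.5% in the higher ones, and below 6 tags 1.30% and 2.98%, with the surroundings of the male list divided at 0.804. The bands and groups were set after the values had been seen. Height is part of the rule, and the level of the surroundings is computed from the height and its local fold. Neither is therefore a separate readout.

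**Figure D3:**
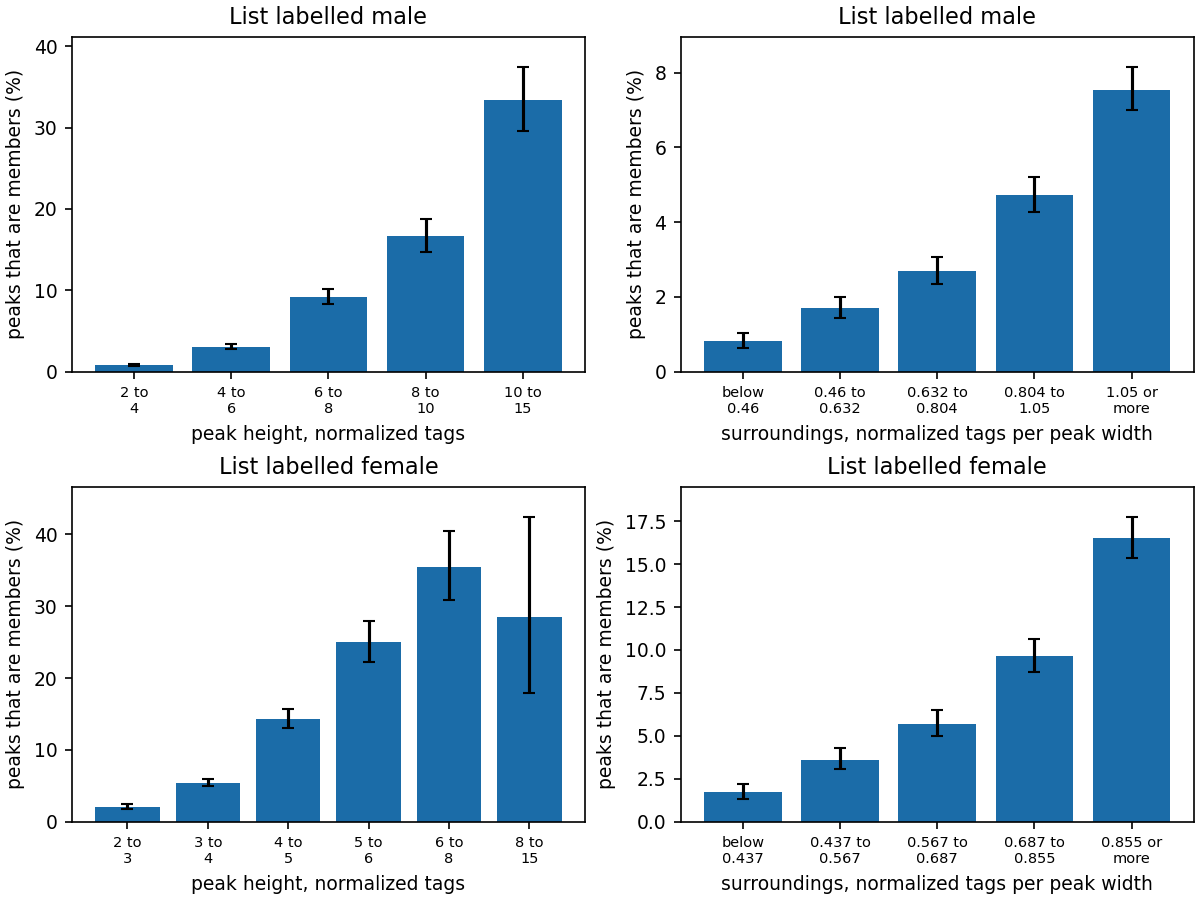
Percent of autosomal peaks of each list that belong to the 1384 pairs (vertical axes), by peak height (left, normalized tags) and in 5 equal groups by the level of the surroundings (right, normalized tags per peak width), with Wilson 95% intervals. The share rises at each step except the tallest female band, which holds 49 peaks.

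Among the regions that stood out most from their surroundings, chr8:104913732-104913866 had 8.65 (male) and 5.09 (female) tags, 100-fold and 33.24-fold over the surroundings. Its fold over the knockout was 2.56 in the male list and 18.51 in the female list. On the same chromosome chr8:17290580-17290714 had 5.99 and 7.38 tags, 21.22-fold and 19.74-fold over the surroundings. In both of these regions the centres were 1 bp apart. Region chr16:42335678-42335812 had 6.32 and 6.11 tags and was the only one of the 5 most prominent regions with 3T3-L1 peaks, of 6.98 tags (untreated) and 6.42 (FCCP). There the peaks stood 19.83-fold (male), 19.49-fold (female), 10.2-fold (untreated) and 11.97-fold (FCCP) over their surroundings. The other regions were chr10:100693345-100693479 (22.33-fold and 17.87-fold, 3.66 and 2.29 tags) and chr19:58535417-58535551 (22.31-fold and 17.10-fold, 9.64 and 7.12 tags).

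The 3T3-L1 lists took no part in the choice of the regions, so overlap with them is a separate readout. Of the 1384 regions, 63 overlapped an untreated 3T3-L1 peak with their male peak (4.55%, Wilson 95% interval 3.57 to 5.78), against 2.93% of the other male peaks (2.76 to 3.10) and 3.01% of the whole autosomal male list. For FCCP the count was 46 (3.32%, 2.50 to 4.40), against 3.35% of the others (3.18 to 3.54) and 3.39% of the whole list. Taken by their female peaks, 64 met an untreated peak (4.62%, 3.64 to 5.86), against 3.12% of the others (2.87 to 3.39) and 3.66% of the whole female list, and 46 an FCCP peak (3.32%), against 3.48% and 3.88%. Over all heights the share with an untreated peak thus lay above that of other peaks beyond counting error in both lists, and the share with an FCCP peak did not. The share of the whole female list lay inside the interval of the pairs. Among peaks at least 4-fold over the knockout, 2.18% of the pairs met an untreated peak (1.25 to 3.77). The 2.54% of the other male peaks at that limit lay inside this interval. With only 3T3-L1 peaks at least 8-fold over the local level the shares were 0.289% and 0.257%. The difference between the untreated and FCCP shares was not tested, since each condition has 1 list. By the male peak, 90 regions met a peak of either list (6.50%), against 4.98% of the other male peaks. Both lists were met by 19 (1.37%, against 1.30%) and neither by 1294.

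Height again moves with this overlap. Below 10 tags the untreated share was 3.08% of the pairs and 2.84% of the other male peaks. Of the 184 regions of 10 to 15 tags in the male list, 26 met an untreated peak (14.1%, 9.83 to 19.9), against 12% of 367 others (9.05 to 15.7). In that band 9 met an FCCP peak (4.89%, 2.59 to 9.03), against 12.8% of the others (9.77 to 16.6). In the 4 lower bands of the male list the untreated share of the pairs was below that of the others at 2 to 4 tags (0.685% against 2.87%), 6 to 8 (3.00% against 3.91%) and 8 to 10 (3.86% against 7.03%), and above it at 4 to 6 (3.54% against 2.25%).

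The surroundings move the other way. In the male-list group with the lowest surroundings 10.9% of the pairs and 7.52% of the others met an untreated peak, and in that with the highest 2.65% and 0.581%. The pairs had the higher untreated share in each of the 5 groups, and in each they also had the higher median fold over the surroundings. Their FCCP share was likewise higher in each of the 5 groups. It was 15.6% against 8.62% in the lowest surroundings and 0.828% against 0.608% in the highest. With both divided as above, the untreated share was 3.72% of pairs and 3.62% of others at low height and lower surroundings, and 2.12% and 0.438% at low height and higher surroundings. At 6 to 15 tags it was 11.4% and 17.7% in lower surroundings, and 4.97% (3.54 to 6.93) and 2.35% (1.93 to 2.86) in higher ones. By the untreated share the pairs were thus above the others in higher surroundings at either height. They were close to them at low height in lower surroundings, and below them at 6 to 15 tags in lower surroundings. The FCCP share of the pairs was above the others at low height, 6.08% against 4.39% in lower surroundings and 1.52% against 0.568% in higher ones. At 6 to 15 tags it was below them, 10.5% against 15.6% and 1.71% against 2.23%. The 3T3-L1 lists were called at 4-fold over their own surroundings, and the part of that limit in these shares was not tested.

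**Figure D4:**
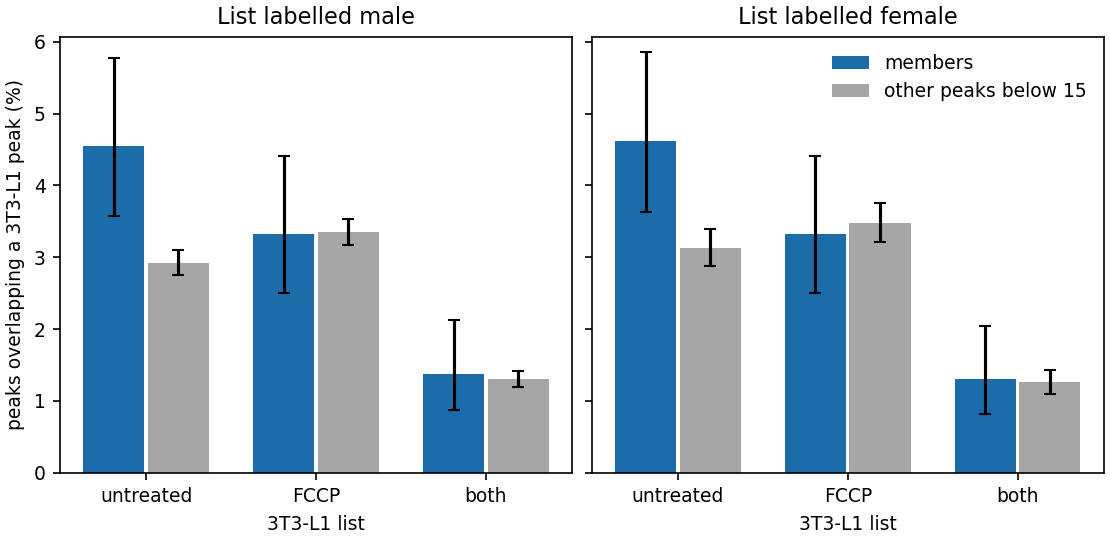
Percent of autosomal BAT peaks (vertical axis) that overlap a peak of the untreated, the FCCP or both 3T3-L1 lists, for the 1384 pairs (members) and the other peaks below 15 normalized tags, by BAT list, with Wilson 95% intervals. In the male list the untreated share was 4.55% for the pairs and 2.93% for the others, and the FCCP shares were 3.32% and 3.35%.

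The 63 regions met by untreated cells were tall, with medians of 8.65 (male) and 4.83 (female) tags and 10.1-fold and 7.39-fold over the surroundings. The 1294 regions met by neither list had 6.32 and 4.07 tags and 6.47-fold and 4.97-fold. The cell peaks at the 63 regions had a median of 5.37 normalized tags, against 4.43 under other male peaks and 4.03 over the whole untreated list. For FCCP the medians were 4.48, 4.48 and 4.03. Overlap with untreated cells also differed by the fold over the knockout: 12 of 551 regions at 4-fold or more in both lists (2.18%, 1.25 to 3.77), 27 of 543 in the female list only (4.97%), 5 of 76 in the male list only (6.58%) and 19 of 214 in neither (8.88%, 5.76 to 13.4). The share at 4-fold in both stands beside the 2.54% of other male peaks at that limit, given above. For FCCP these shares were 3.27%, 3.50%, 1.32% and 3.74%. The class at 4-fold in both lists holds the lowest regions and that in neither the tallest.

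By the male peak 19 regions met both 3T3-L1 lists (1.37%), close to the 1.30% of the other male peaks. By the female peak 18 did (1.30%), against 1.26% of the other female peaks. Of the 19, the 10 with the highest value in their lower BAT list were looked up, so their height follows from that choice. Over all 19 the median heights were 7.32 (male) and 5.34 (female) tags, and the median folds over the surroundings 10-fold and 9.07-fold. Besides those named, chr18:7609055-7609189 had 12.3 tags (male), 8.39 (female), 5.50 (untreated) and 7.32 (FCCP), and chr2:58386667-58386801 had 11.3 tags (male), 7.63 (female), 7.25 (untreated) and 5.82 (FCCP). Region chr2:118738190-118738324 had 12.6, 6.11, 7.11 and 5.97, with a male to female ratio of 2.06 (exact 95% interval 1.21 to 3.61). Region chr5:149494948-149495082 had 11.3, 6.11, 4.97 and 4.48, and chr3:126588264-126588398 had 8.65, 5.09, 6.04 and 3.73. Lower heights in the male list were found at chr11:105338641-105338775 (5.65, 6.36, 5.23 and 5.23) and at chr16:44058203-44058337 (5.65, 5.34, 4.03 and 3.43). At these last regions the male and female peaks shared only 21 and 3 bp. On chromosome 16 the female peak, at 44058335 to 44058473, met neither 3T3-L1 peak, so only the male peak overlapped them. Over all 19 regions the median fold over the knockout was 3.48 in the male list and 4.40 in the female list.

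The regions were spread over every autosome. Chromosome 11 held the most, 126, which was 4.57% of its male peaks (3.85 to 5.41) and 10.7% of its female peaks (9.02 to 12.5). Chromosome 18 held the fewest, 34, at 2.53% (1.81 to 3.51) and 4.93% (3.55 to 6.82). By chromosome, the median male to female ratio was lowest on 13 (1.40) and highest on 14 (1.72), and above 1 on all 19. Chromosomes with richer surroundings had larger shares: Spearman's rho between the share and the median level of the surroundings was 0.56 for the male and 0.76 for the female list over the 19 chromosomes, which share their libraries.

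**Figure D5:**
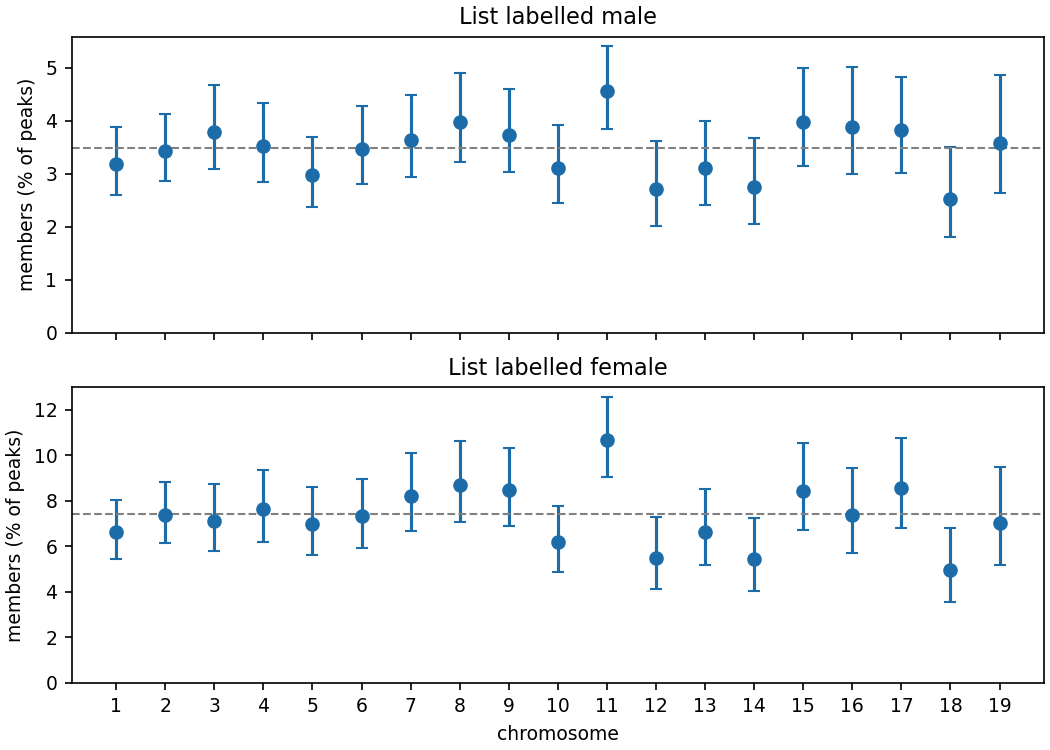
Percent of the autosomal peaks of each list that belong to the 1384 pairs (vertical axis), by chromosome (horizontal axis), with Wilson 95% intervals and the share over all autosomes as a dashed line. Chromosome 11 is highest in both lists (4.57% and 10.7%) and chromosome 18 lowest (2.53% and 4.93%).

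Neighbouring regions on a chromosome were a median of 583293 bp apart (quartiles 173798 and 1849691). Of 1365 steps from one to the next, 230 were under 100 kb, 27 under 10 kb and 2 under 2 kb. The closest lay 310 bp apart on chromosome 17, chr17:26235646-26235780 with 8.98 (male) and 5.34 (female) tags and chr17:26235956-26236090 with 7.65 and 6.87. The next closest were 1034 bp apart on chromosome 5, chr5:114033661-114033795 (6.32 and 3.82 tags) and chr5:114034695-114034829 (7.32 and 4.83).

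In fixed windows of 1 Mb, the regions fell in 798 of the 2377 windows with a male peak, and 32 windows held at least 5. In 457 windows a region was the sole one. The number of regions followed the number of male peaks (Spearman's rho 0.60 over the windows, which share their library). The fullest window, on chromosome 7 at 101 to 102 Mb, held 8 regions among 43 male and 16 female peaks, with heights of 2.99 to 12 (male) and 2.80 to 6.61 (female) tags. Windows at 106 to 107 Mb of chromosome 11 and 107 to 108 Mb of chromosome 9 held 7 each, among 44 and 52 male peaks. In the chromosome 11 window the heights were 4.32 to 8.98 (male) and 3.31 to 6.61 (female), and in the chromosome 9 window 5.32 to 9.98 and 2.80 to 6.61. All 22 regions of these 3 windows were higher in the male list, and none met a 3T3-L1 peak. Over the 1384 regions, 95.4% were higher in the male list and 6.50% met a 3T3-L1 peak, so neither count sets these windows apart.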

How the data were processed

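GPS2 ChIP-seq was deposited as HOMER peak lists on mm8, with Bowtie2 and HOMER named in the submitters' processing notes and no versions given in the sources used here. Per the file headers, each BAT list compares 1 wild-type library with the knockout library labelled with the same sex, with an FDR of 0.05, at least 2-fold over the knockout and over the surrounding 10000 bp, p-value limits of 0.0001 for both, and at most 1 tag per bp. The 3T3-L1 lists have an FDR of 0.001, at least 4-fold over the surroundings, at most 3 tags per bp and no control. Heights are signal values that the authors scaled to 10000000 tags. The fold values (ratios over knockout and surroundings), the HOMER score and the strand fraction were used as deposited by the authors, and the p-value columns were only read. In the male list the authors' knockout tags come in steps of 0.6778, so that 1 knockout tag counts as 0.6778 after scaling.

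Pairs were found with Python 3.11.15, numpy 2.4.6, pandas 2.3.3 and SciPy 1.17.1, and figures drawn with matplotlib 3.10.9. As a check of the code, 1000 of the 39649 male peaks were shifted by less than their width to form a simulated second list. All 1000 planted pairs were found, and a planted log2 ratio of 0.5 came out as 0.51. Each planted peak had to overlap its source, and no call limit was applied. The check therefore does not cover chance pairs or a bias of the ratio in the real lists. Shares have Wilson intervals and single ratios exact (Clopper-Pearson) intervals, at 95%. They cover counting error only, and take peaks or tags as independent counts. Tags without molecular identifiers need not be independent molecules. No test was made: there is 1 list per condition, and peaks are not replicates. The regions, bands and comparisons were chosen with earlier results of these data known. Named regions are the 5 highest by the lower of the 2 heights, knockout folds or local folds, and up to 10 whose male peak met both 3T3-L1 lists. The others are the 3 largest and smallest ratios, the 3 on each side of the limit, and the 3 fullest windows. The gene table at hand is of another build, so no gene names or sequences were used. Alternatives changed overlap, height, knockout, local and chromosome limits, list size and scaling.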

Additional observations from a re-analysis of the deposited data

How the results depend on the processing

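Of 80 values recomputed under other settings, 51 stayed within the tolerance set for them, 28 moved and 1 reversed. The tolerance was the 95% interval of the reported value, except for the number of pairs, where it was 1.5 times, so that counts from 1029 to 1426 passed. No paired analysis was possible because each condition has 1 list, and for the same reason no replicate could be left out. The pairs numbered 551 at 4-fold or more over the knockout in both lists and 838 with centres within 50 bp. Their share of the male list was 1.78% at 4-fold over the knockout, 3.02% at 4-fold over the surroundings, 2.60% with an overlap of at least 50% of the shorter peak, 3.03% below 10 tags, 2.11% with centres within 50 bp and 6.50% between equal numbers of top-scoring peaks. For the female list these shares were 3.22%, 6.71%, 5.50%, 6.41%, 4.48% and 6.50%. The median fold over the knockout in the male list was 5.16 at 4-fold over the knockout, where the limit itself raises it, 3.93 below 10 tags, 3.69 with centres within 50 bp and 3.69 between equal numbers. The median log2 ratio of male to female height was 0.49 at 4-fold over the knockout, 0.56 below 10 tags, 0.65 with centres within 50 bp, 0.67 between equal numbers, 0.23 after division by the list's median height, 0.34 by folds over the surroundings and -0.46 by folds over the knockout, which reverses it (the cause was not tested). The share met by untreated 3T3-L1 peaks was 2.18% at 4-fold over the knockout (2.54% of other peaks), 3.08% below 10 tags (2.84%) and 0.289% against 3T3-L1 peaks with a local fold of 8 or more (0.257%). With that last limit the FCCP share was 0.289% (0.333%). At a median of 19 and 16 library tags, depth limits what a single pair can show.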

Other observations

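On the X chromosome, which the regions leave out, 13 pairs below 15 normalized tags overlapped, which is 4.01% of 324 male peaks (Wilson 95% interval 2.36 to 6.74) and 3.26% of 399 female peaks (1.91 to 5.49). Their male to female ratio had a median of 1.06 (range 0.654 to 3.27), with 9 of 13 higher in the male list, and their median folds over the knockout were 4.91 and 9.26. No pair below 15 normalized tags was found on chromosome Y or in the mitochondrial genome, where the lists hold 5 and 3 peaks (male) and 1 and 9 (female).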
